A study of Mus musculus with 20 samples.

Results

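Among CD45+ cells sorted from laser-lesioned mouse retina, 108 of 389 annotated wells were called dendritic cells by the authors, and a second, signature-based call of theirs divided these wells into 58 that it also named dendritic cells and 50 that it did not. Of the 50 other wells, the signature call left 43 unassigned, named 6 lymphocytes and named 1 a monocyte. All 108 wells came from 8 libraries, 7 of which held both classes, and 5 of the 58 signature-named wells came from the 1 library with no other well. The classes were compared within pairs of libraries, each of which held both. All retinal wells with an annotation numbered 511, of which 122 were from unlesioned control retina and were not used.

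The mice were C57BL/6, 8 weeks old and kept under specific-pathogen-free conditions, and no transgene or gene deletion is given in the labels. Retinas were taken 3 or 7 days after laser lesioning (libraries labelled CNV, 4 per day). Isolated myeloid cells were stained for CD45 and CD11b, and CD45+ cells were sorted singly into plates, so the sort itself did not select dendritic cells. Each library of 192 wells was made with mCEL-Seq2, which counts transcripts by molecular barcodes at their 3′ ends. The labels do not tie a library or a well to a mouse, so wells of one library may share an animal, and p-values measure the spread between libraries, which may be technical. Library titles carry a prefix, P1 or P2, shared by 2 libraries of each day, and the wells of each class were summed over these 4 pairs of libraries. In the order P1 day 3, P2 day 3, P1 day 7 and P2 day 7, used for all levels below, the pairs held 14, 26, 14 and 4 signature-named wells and 9, 33, 2 and 6 other wells. Day 7 of the other class therefore rests on 8 wells.

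Conventional dendritic cells take up antigen, load it on MHC class II molecules and present it to T cells, and they depend on the receptor Flt3 for their development. They are divided into type 1 cells, which bear Xcr1 and Clec9a and cross-present antigen to CD8 T cells, and type 2 cells, which are more heterogeneous and share surface molecules such as Cd209a, Clec10a and Mgl2 with monocyte-derived cells. In an inflamed tissue, monocytes that enter from blood can also gain MHC class II and some dendritic cell genes while keeping Ccr2, Fcgr1 or Csf1r. The healthy retina holds few such cells beside its resident microglia.

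Both classes were first set against the marker lists of the label they share. Levels are given as CPM, the transcripts of a gene per 1000000 transcripts of the class in that pair of libraries. The MHC class II list, 11 measured genes for presenting peptide on MHC class II, summed to between 74213 and 89345 CPM in the signature-named wells and to between 75307 and 99598 CPM in the other wells, against 9333 to 20182 CPM in the 194 wells annotated as microglia. The dendritic cell core list of 18 genes was at 8027 to 8331 CPM in the signature-named wells, at 3998 to 5557 CPM in the other wells and at 1655 to 1980 CPM in microglia. The classes did not overlap on this list: every signature-named pair was above every pair of other wells, which in turn were above every pair of microglia. The macrophage list, which microglia share in large part, was at 704 to 2146 CPM in the signature-named wells, 1228 to 9412 CPM in the other wells and 21484 to 36712 CPM in microglia. The T cell list was at 9.52 to 145 CPM in the signature-named wells, 19.5 to 166 CPM in the other wells and 36.5 to 363 CPM in microglia. Cd3e, a chain of the T cell receptor complex, had 0 transcripts in the signature-named wells and 1 in the other wells.

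**Figure D1:**
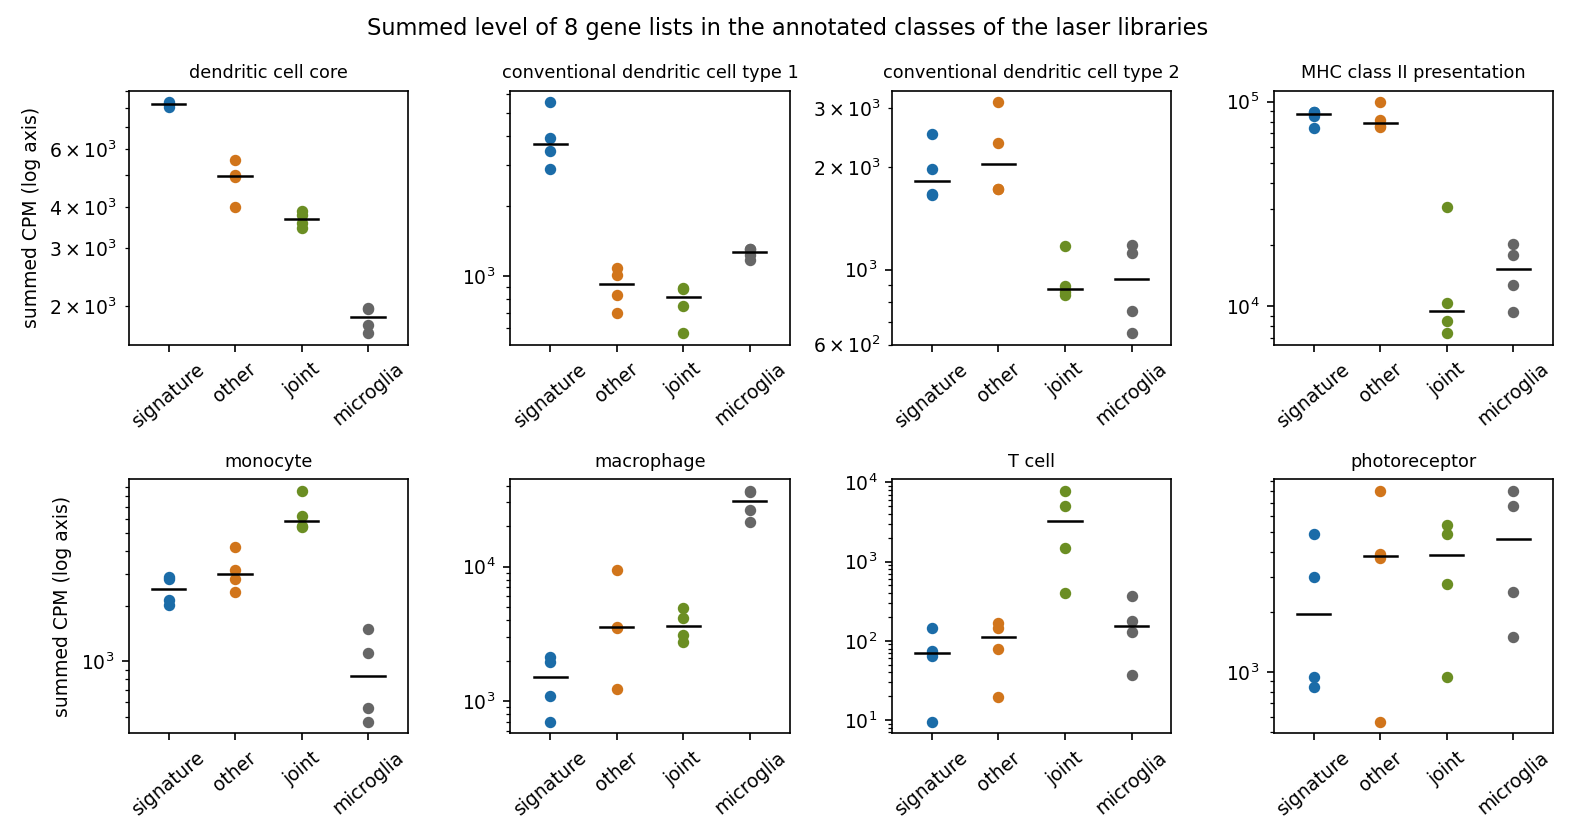
Summed level of 8 marker lists (CPM, log axis) in the signature-named and the other dendritic cells, in microglia and in the authors' joint class of monocytes, lymphocytes and granulocytes, 1 point per pair of libraries, bars at the median of 4 pairs. The MHC class II list overlaps between the dendritic cell classes (74213 to 89345 and 75307 to 99598 CPM), while the dendritic core and type 1 lists lie higher in the signature-named wells.

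The classes were compared with edgeR's quasi-likelihood test on the summed transcripts, with the pair of libraries as a block and Benjamini-Hochberg adjustment, at a threshold of 0.05. Of 1040 genes tested, 18 passed (1.73%), 10 higher in the signature-named wells (0.962%) and 8 lower (0.769%), while 102 had an unadjusted p under 0.05. The 10 higher genes were Itgae, Ppt1, Cxx1a, Wdfy4, Btla, Flt3, Irf8, Naaa, Cdh1 and Id2, and the lower genes included Lilr4b, C1qc, Ms4a4c, Ccr2, Csf1r, Fcer1g and Ftl1. The signature call was made from transcripts of the same wells, and the sources used here do not name its genes. A difference in a leucocyte marker gene, an immune receptor or an MHC class II gene is therefore given as a size with its standard error (SE) and without a p-value, and the p-values of other genes carry the limit that these genes could also have entered the call. Positive log2 fold changes mean a higher level in the signature-named wells.

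**Figure D2:**
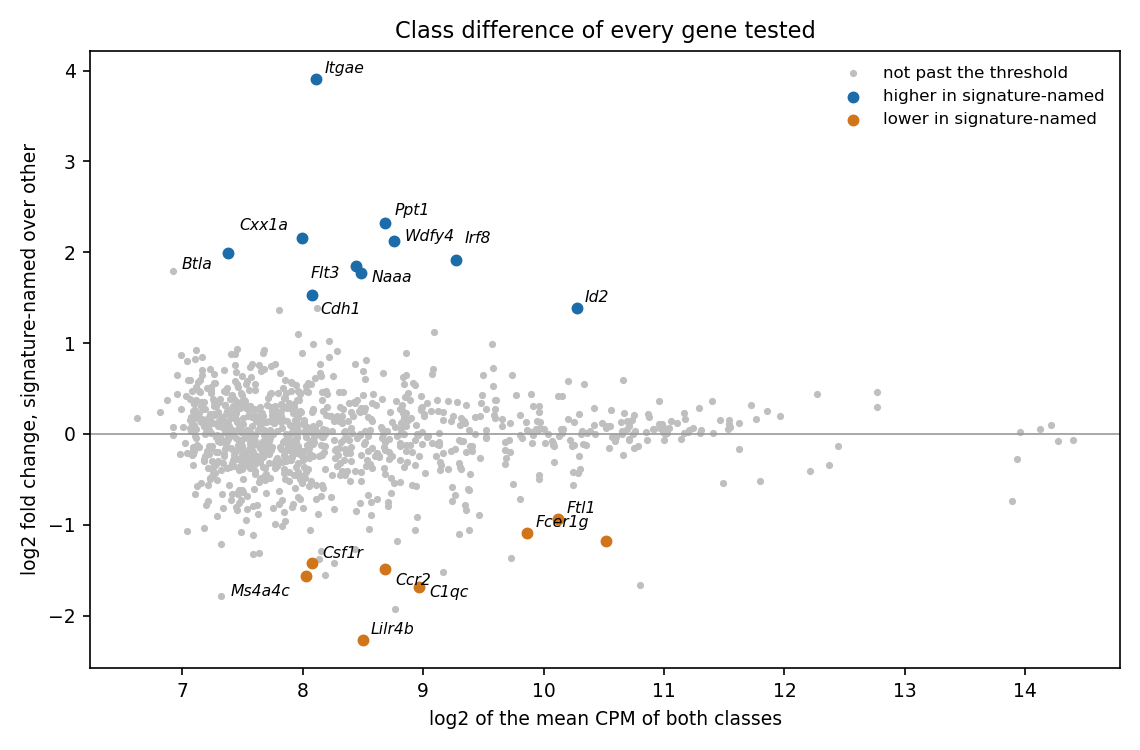
Log2 fold change between signature-named and other wells (vertical axis) against mean level (log2 CPM, horizontal axis) for the 1040 genes tested, with the 18 genes that passed the adjusted threshold in colour and those described in the text labelled. The median over all genes is 0.01, with 10 coloured genes above 0 and 8 below.

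Among the genes that define conventional dendritic cells, Flt3 was at 533, 498, 576 and 582 CPM in the signature-named wells and at 175, 126, 235 and 55.5 CPM in the other wells. Every signature-named pair was above every other pair, with means of 547 ± 39.4 and 148 ± 76.0 CPM (SD, n = 4 pairs) and a log2 fold change of 1.85 (SE 0.37). Id2, a repressor of E-protein transcription factors on which dendritic cell development depends, was at 1287, 1508, 1795 and 2770 CPM against 487, 694, 470 and 888 CPM (log2 1.38, SE 0.25), again without overlap. Zbtb46, a transcription factor of conventional dendritic cells, was too low to be tested. It was at 133, 85.6, 76.8 and 36.3 CPM in the signature-named wells and at 39.0, 32.5, 0 and 0 CPM in the other wells. The zeros at day 7 allow up to 235 and 166 CPM (3 transcripts over those of the pair), so Zbtb46 is not shown to differ there. Itgax, the integrin CD11c that dendritic cells share with many activated myeloid cells, had a log2 fold change of 0.09 (SE 0.30), and the data do not separate the classes on it. Of the 10 dendritic core genes tested, 9 were higher in the signature-named wells, 6 of them in all 4 pairs, with a median log2 fold change of 0.77 against 0.01 over all genes. A gene could enter the test on its level in 1 class alone, so this count and those of the lists below are descriptions of the genes tested, not of the whole lists. Over all genes tested, 12.2% were higher in all 4 pairs and 6.15% were lower in all 4.

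The type 1 dendritic cell genes separated the classes more widely. Itgae, the integrin CD103 of type 1 and of some mucosal dendritic cells, was at 610, 557, 512 and 400 CPM in the signature-named wells and at 117, 18.0, 0 and 0 CPM in the other wells (log2 3.91, SE 0.51). The lowest signature-named pair was above the highest other pair, and the zeros at day 7 allow up to 235 and 166 CPM (3 transcripts over those of the pair; counting error only). Wdfy4, which cross-presentation by type 1 cells requires, was at 638, 809, 717 and 800 CPM against 312, 180, 0 and 0 CPM (log2 2.12, SE 0.42). Ppt1, a lysosomal thioesterase, was at 630, 531, 1142 and 473 CPM against 136, 101, 157 and 111 CPM (log2 2.32, SE 0.37). Naaa, a lysosomal hydrolase of lipid amides, was at 793, 429, 822 and 182 CPM against 195, 133, 313 and 0 CPM, with the P2 day 7 pair of the signature-named wells below 2 of the other pairs. Of the 13 type 1 genes 5 had enough transcripts to be tested, in part through the signature-named class alone, so no count or median is read from those 5. All 13 together summed to 3900, 3438, 5563 and 2873 CPM in the signature-named wells and to 1091, 700, 1017 and 833 CPM in the other wells, against 1171 to 1315 CPM in microglia.

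Among the 8 type 1 genes too low to be tested were the defining surface receptors. Xcr1, the receptor for the chemokine Xcl1, was at 372, 182, 307 and 72.7 CPM in the signature-named wells and at 19.5, 14.4, 0 and 55.5 CPM in the other wells, from 99 and 6 transcripts. Clec9a, a receptor for exposed actin of dead cells, was at 85.7, 112, 230 and 36.3 CPM against 0, 3.61, 0 and 0 CPM. Its 49 and 1 transcripts give a ratio of 44.3 with an exact counting interval of 7.58 to 1784. Tlr3, the endosomal receptor for double-stranded RNA and chosen here after its values were seen, was at 162, 123, 256 and 109 CPM against 39.0, 18.0, 0 and 0 CPM. At 0 transcripts the other class allows up to 235 CPM in the P1 day 7 pair and 166 CPM in the P2 day 7 pair. Clec9a is therefore not shown to be higher in either day 7 pair, nor Tlr3 in the P2 day 7 pair.

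**Figure D3:**
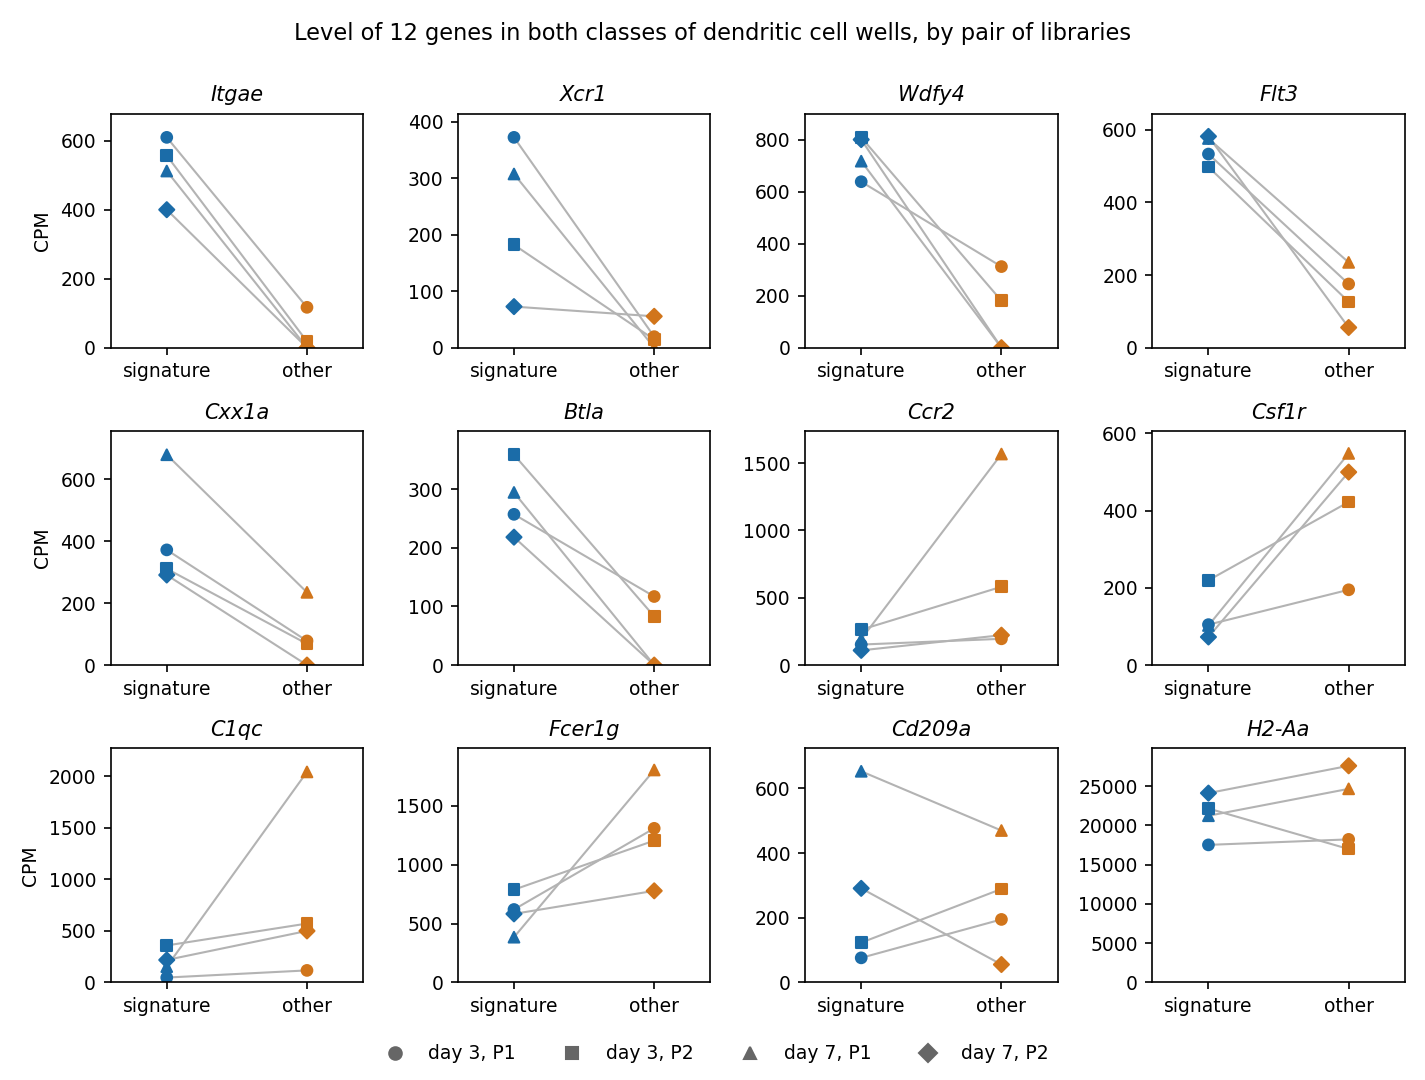
Levels of 12 genes (CPM, 1 panel per gene) in the signature-named and the other wells of each pair of libraries, with lines joining the classes of a pair. For Itgae, Wdfy4 and Flt3 all 4 lines run the same way (Flt3 498 to 582 against 55.5 to 235 CPM), while for H2-Aa and Cd209a they do not.

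The level of the type 1 list was uneven among the signature-named wells. In 11 of the 58 wells the 13 genes together made up 9.25 to 13.5 transcripts per 1000, and in the remaining 47 signature-named wells at most 3.73 per 1000. None of the 50 other wells lay in the higher range, and their highest value was 4.32 per 1000. The separation at 5 per 1000 was chosen after the values were seen, and no well lay between 4.32 and 9.25. The 11 wells were spread over all 4 pairs (2, 5, 3 and 1 wells) and over the 3 clusters of the authors that hold annotated dendritic cells, with 2 in cluster 1, 8 in cluster 7 and 1 in cluster 9. Their median depth was 7653 transcripts, against 6701 in the other 47 signature-named wells.

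These 11 wells held 96.0% of all Clec9a, 86.7% of all Xcr1 and 74.3% of all Tlr3 transcripts of the 108 dendritic cell wells, which follows in part from the list that chose them. Genes outside the list were also concentrated there. Irf8, a transcription factor needed for type 1 cells, was at 3989 CPM in the 11 wells, 112 CPM in the remaining 47 signature-named wells and 175 CPM in the other class, so 79.2% of its transcripts lay in the 11. Cxx1a was at 1319, 118 and 72.3 CPM in the same order. Cst3, which encodes the protease inhibitor cystatin C and is high in type 1 cells, was at 11903, 5093 and 3880 CPM. Cd209a, Clec10a, Mgl2 and Sirpa, all on the type 2 list, had no transcript in the 11 wells. Klrd1, on the same list, was found in 7 of the 11 wells. It was at 151 CPM there, 535 CPM in the remaining 47 and 415 CPM in the other class. Ccr7, the receptor that guides dendritic cells to lymph nodes, had no transcript in the 11 wells. It was found in only 3 of the remaining 47 signature-named wells and 7 of the 50 other wells, so its absence does not set the 11 wells apart.

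Other genes that were higher in the signature-named class were not limited to the 11 wells. Itgae was at 691 CPM in the 11 wells, at 509 CPM in the remaining 47 and at 30.6 CPM in the other class. Flt3 was at 615, 502 and 134 CPM, Btla at 388, 285 and 80.7 CPM and Id2 at 2304, 1377 and 666 CPM. Cdh1, the adhesion molecule E-cadherin, had the reverse distribution within the class, with 10.8 CPM in the 11 wells and 578 CPM in the 47, against 178 CPM in the other class. Ppt1 (2304, 177 and 109 CPM) and Naaa (2142, 112 and 142 CPM) are themselves on the list that chose the 11 wells, so their low level in the remaining wells follows in part from that choice. With the 11 wells left out, an alternative added after the data were seen, 7 of 692 genes passed, 5 of them among the 18. Itgae (log2 3.83), Cdh1 (1.86), Flt3 (1.80) and Id2 (1.21) were the 4 higher genes, while Wdfy4 no longer passed and Irf8, Ppt1, Naaa, Cxx1a and Btla fell under the filter on low counts and were not tested.

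**Figure D4:**
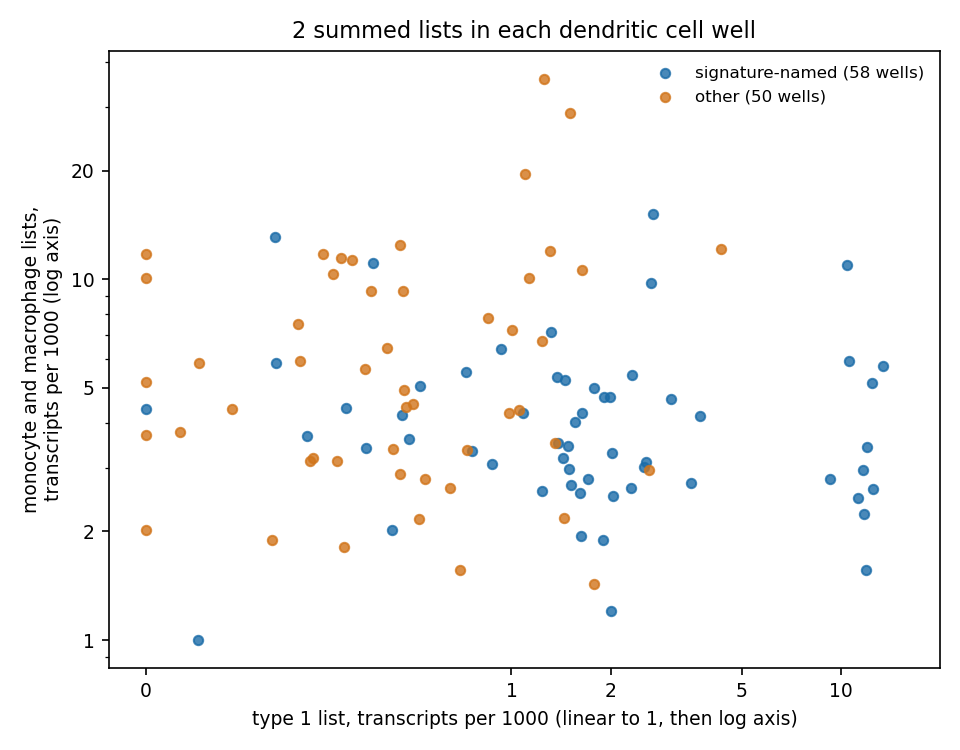
Each of the 108 dendritic cell wells by the transcripts per 1000 of the type 1 list (horizontal axis) and of the monocyte and macrophage lists together (vertical axis), coloured by class. A separate set of 11 signature-named wells lies at 9.25 to 13.5 on the horizontal axis, and all 50 other wells lie at or below 4.32.

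Of the called genes outside the marker lists, Btla, an inhibitory receptor of lymphocytes and dendritic cells, was at 257, 359, 294 and 218 CPM in the signature-named wells and at 117, 83.0, 0 and 0 CPM in the other wells. It was higher in the signature-named wells of all 4 pairs (log2 2.00, SE 0.45), but the 0 of the P1 day 7 pair allows up to 235 CPM, above the lowest signature-named value. Cxx1a was at 372, 311, 679 and 291 CPM against 77.9, 68.5, 235 and 0 CPM, without overlap (log2 2.15, SE 0.42, edgeR adjusted p = 0.00117). It belongs to a family of closely related genes whose reads the counting could have divided. Cdh1 was at 581, 493, 141 and 473 CPM against 292, 177, 0 and 0 CPM, higher in all 4 pairs but with overlapping ranges (log2 1.53, SE 0.41, edgeR adjusted p = 0.0299). Its 0 in the P1 day 7 pair also allows up to 235 CPM, so Cdh1 is not shown to be higher there. Cdh1 passed in only 5 of the 16 settings that tested it.

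Detection of Itgae, Flt3 and Xcr1 in single wells followed the same order at equal depth. Itgae was found in 42 of 58 signature-named wells (exact 95% interval 59.1 to 83.3%) and in 6 of 50 other wells (4.5 to 24.3%). After each well was thinned to 1000 transcripts, with no well left out, it was found in 17 and 1 wells. In microglia, which serve here as a type that should lack the gene, it was found in 3 of 194 wells as measured (median 2339 transcripts) and in 1 after thinning. Flt3 was found in 54 signature-named and 28 other wells as measured and in 28 and 5 after thinning, against 1 of 194 microglia at either depth. Both classes of dendritic cells were thus above the microglia background for Flt3, and the other wells with it were fewer. In the joint class of monocytes, lymphocytes and granulocytes, Flt3 was found in 14 of 87 wells as measured (median 3139 transcripts). After thinning it was found in 8 of 87 wells there, against 5 of 50 in the other class. At equal depth the other class was therefore not shown to exceed the joint class. The signature named 9 wells of the joint class dendritic cells, and these had Flt3 at 446 CPM. The remaining 78 wells of the joint class were at 40.4 CPM. Xcr1 was found in 8 of 58 (13.8%) and 2 of 50 wells (4.0%) after thinning, and in 9 of 194 microglia (4.64%), so its share in the other class was not above that background. Irf8 had the reverse order as measured, in 28 of 58 (48.3%) signature-named and 31 of 50 (62.0%) other wells. After thinning it was found in 16 (27.6%) and 8 wells (16.0%), and in 95 of 194 microglia (49.0%). Intervals and floors cover counting error only.

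Type 2 dendritic cell genes did not separate the classes. Cd209a, a C-type lectin, was at 76.1, 123, 653 and 291 CPM in the signature-named wells and at 195, 289, 470 and 55.5 CPM in the other wells, higher in 2 pairs and lower in the other 2 (log2 -0.52, SE 0.41). Clec10a, a galactose-binding lectin, was at 257, 536, 179 and 1129 CPM against 839, 278, 391 and 55.5 CPM (log2 0.19, SE 0.93), so its spread between pairs was far wider than the difference. Of the 5 type 2 genes tested, 2 were higher and 3 lower, none in all 4 pairs, with a median log2 fold change of -0.19. At least 1 of Cd209a, Clec10a and Mgl2 was found in 36 of 58 signature-named wells and in 31 of 50 other wells as measured, and in 25 and 16 after thinning. At least 1 of the type 1 genes Xcr1, Clec9a, Itgae and Tlr3 was found in 47 and 17 wells as measured and in 23 and 5 after thinning. These small sets were chosen after the values were seen. As measured, Itgae was found in 42, Xcr1 in 18, Clec9a in 12 and Tlr3 in 19 of the 58 signature-named wells. In the 50 other wells they were found in 6, 6, 1 and 6. The count for the type 1 set thus rests largely on Itgae, which was not limited to the 11 wells high in the type 1 list.

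The antigen presentation genes Cd74 and H2-Aa were at similar levels in both classes. Cd74, the invariant chain of MHC class II, was at 19512 ± 2625 CPM in the signature-named and 19946 ± 1970 CPM in the other wells (SD, n = 4 pairs), a log2 fold change of -0.08 (SE 0.22). H2-Aa, an MHC class II chain, was at 21248 ± 2763 and 21858 ± 5084 CPM (log2 -0.06, SE 0.22) and was found in all 58 and all 50 wells. Of 11 MHC class II genes tested, 8 were higher and 3 lower, with a median log2 fold change of 0.10. Ciita, the master regulator of MHC class II transcription, was higher in all 4 pairs of the signature-named wells, at 762, 685, 589 and 691 CPM against 565, 484, 78.3 and 444 CPM (log2 0.66, SE 0.32). Of the 7 MHC class I genes tested none passed, with a median log2 fold change of 0.19. B2m, the light chain of MHC class I, had a log2 fold change of -0.41 (edgeR adjusted p = 0.637) and Tap1, the peptide transporter, of 0.90 (edgeR adjusted p = 0.452).

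Several monocyte and macrophage genes were higher in the wells that the signature did not name. Csf1r, the receptor for macrophage colony-stimulating factor, was at 105, 219, 102 and 72.7 CPM in the signature-named wells and at 195, 422, 548 and 500 CPM in the other wells (log2 -1.42, SE 0.39). Ccr2, the receptor that brings monocytes out of bone marrow and into tissue, was at 152, 262, 192 and 109 CPM against 195, 581, 1567 and 222 CPM (log2 -1.48, SE 0.38). C1qc, a chain of complement C1q made by tissue macrophages, was at 47.6, 359, 154 and 218 CPM against 117, 571, 2041 and 500 CPM (log2 -1.69, SE 0.43). These genes were lower in the signature-named wells of every pair, although the ranges of the pairs overlapped. Ms4a4c, on the monocyte list, was at 95.2, 69.6, 192 and 109 CPM against 195, 170, 861 and 389 CPM (log2 -1.56, SE 0.39). The highest values of C1qc, Ccr2 and Ms4a4c were in the P1 day 7 pair of the other class, which holds 2 wells and 12781 transcripts. Among the alternative fits that tested them, Ccr2 and Ms4a4c passed in 5 of 14 and 5 of 13, C1qc in 3 of 16 and Csf1r in 2 of 16, so these 4 calls rest on the settings used.

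The 5 macrophage genes tested, of 18 on the list, were lower in the signature-named wells, 4 of them in all 4 pairs. Over all genes tested, 6.15% were lower in all 4 pairs. These 5 could have entered the test on their level in the other class alone, so the count does not describe the whole list. The monocyte list did not move as one, and summed to 2887, 2801, 2164 and 2037 CPM against 2398, 3148, 4228 and 2832 CPM. Of its 6 tested genes, 3 were higher and 3 lower, and Plac8, a gene of monocytes and plasmacytoid dendritic cells, was higher in every pair of the signature-named wells at 944, 1023, 487 and 582 CPM against 429, 509, 157 and 222 CPM (log2 1.12, SE 0.32). Ly6c2, the surface marker of inflammatory monocytes, was untested at 38.1, 53.5, 0 and 0 CPM against 19.5, 235, 470 and 111 CPM, and 48.6% of the other class's transcripts of it came from 1 well of the P2 day 3 pair. Of the 74 Ly6c2 transcripts of the other class, 41 lay in the 6 wells named lymphocytes and 19 in the 1 named a monocyte. The 43 unassigned wells were at 42.6 CPM, close to the 35.2 CPM of the signature-named wells. Fcgr1, the Fc receptor CD64, was untested at 28.5, 16.0, 0 and 109 CPM against 58.5, 123, 157 and 111 CPM. Fcgr1 was found in 6 of 58 and 20 of 50 wells as measured, and in 3 and 8 after thinning. Ccr2 was found in 20 and 31 wells, and in 9 and 18 after thinning. The 11 wells high in type 1 genes were at 551 CPM of Ccr2, close to the 543 CPM of the other class, while the remaining 47 signature-named wells were at 105 CPM. Csf1r was at 21.6 CPM in the 11 wells, at 197 CPM in the remaining 47 and at 398 CPM in the other class.

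Among the called genes outside the leucocyte lists, Fcer1g, the signalling chain shared by several Fc receptors, was at 619, 787, 384 and 582 CPM in the signature-named wells and at 1307, 1203, 1802 and 777 CPM in the other wells (log2 -1.09, SE 0.27). Lilr4b, an inhibitory receptor of myeloid cells, was at 114, 107, 51.2 and 36.3 CPM against 175, 281, 1569 and 555 CPM (log2 -2.27, SE 0.52). Its highest value was in the P1 day 7 pair of the other class, which holds 2 wells, 1 of them with 20 Lilr4b transcripts. Lilr4b did not pass with either day 7 pair left out. Ftl1, the ferritin light chain that stores iron, was at 752, 1093, 794 and 400 CPM against 1151, 1842, 1254 and 1611 CPM (log2 -0.94, SE 0.25, edgeR adjusted p = 0.0299). For all 3 genes every signature-named pair was lower than its partner, and for Lilr4b and Ftl1 the ranges of the classes did not overlap. Lilr4b and Ftl1 have near-identical relatives or processed copies in the mouse genome, so their counts are uncertain. Axl, a receptor for apoptotic cells, missed the threshold at 95.2, 96.3, 205 and 400 CPM against 312, 307, 470 and 389 CPM (log2 -1.29, SE 0.38).

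Broader functional lists held few or no called genes. None of the 20 cathepsin and lysosome genes tested passed, 15 being lower in the signature-named wells, with a median log2 fold change of -0.53. Examples were Lamp1 (log2 -0.89, edgeR adjusted p = 0.269) and Ctsd (log2 -0.90, edgeR adjusted p = 0.408). Of 10 genes reported for microglia at lesions, 9 were lower and none passed (median -0.51). Oxidative phosphorylation (15 genes, median -0.14), glycolysis (7 genes, -0.39), cytosolic ribosomal proteins (70 genes, 0.06) and immediate early genes (6 genes, -0.41) had no gene past the threshold. Mki67, a marker of dividing cells, had 35 transcripts in the signature-named and 25 in the other wells and was not tested.

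Transcripts of retinal neurons were present in both classes. Pdc, which encodes the photoreceptor phosphoprotein phosducin, was at 47.6, 85.6, 333 and 473 CPM in the signature-named wells and at 77.9, 325, 862 and 555 CPM in the other wells. It was lower in every pair of the signature-named class but missed the threshold (log2 -1.26, SE 0.38, edgeR adjusted p = 0.0843). Sag, the photoreceptor arrestin, was lower in 3 of 4 pairs (log2 -1.38, SE 0.46, edgeR adjusted p = 0.175). All 8 photoreceptor genes described here that were tested were lower, with a median log2 fold change of -1.05, and none of them passed. Their list summed to 942, 840, 4869 and 2981 CPM against 565, 3733, 7990 and 3886 CPM, so the list as a whole was not lower in the P1 day 3 pair. Cluster 9 of the authors held 6 of the other wells, all from the P2 day 3 pair, and 1 signature-named well. The part of free or engulfed photoreceptor RNA in the differences between the classes was not tested.

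Depth per well did not separate the classes beyond the spread between libraries. The median well held 6863 transcripts in the signature-named class and 6873 in the other class. By pair the medians were 7913, 7756, 5222 and 6779 transcripts in the signature-named class. They were 5538, 7855, 6391 and, lowest of all, 2489 transcripts in the other class. In the 7 libraries that hold both, the log2 median depth was higher in the signature-named wells by 0.40 ± 0.89 (SD), in 4 of 7 libraries (exact two-sided sign-flip permutation p = 0.297, adjusted over 4 tests 0.479, smallest possible 0.0156). At 1000 transcripts per well the class medians averaged 665 and 638 genes, a difference of 27.6 ± 67.0 (exact permutation p = 0.359, adjusted 0.479). Mitochondrial transcripts averaged 10.1% and 13.3%, a difference of -3.27 ± 4.82 percentage points, lower in the signature-named wells of 5 of 7 libraries (exact permutation p = 0.0938, adjusted 0.375). None of the signature-named wells but 6 of the other wells exceeded 25% mitochondrial transcripts. With wells above 25% or under 1000 transcripts left out, 10 of 1042 genes passed, 9 of them among the 18. These 9 were all higher in the signature-named class. The 1 lower gene was not among the 18, so Lilr4b, C1qc, Ms4a4c, Ccr2, Csf1r, Fcer1g and Ftl1 did not pass. The part of RNA quality in the lower genes was not tested beyond this.

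**Figure D5:**
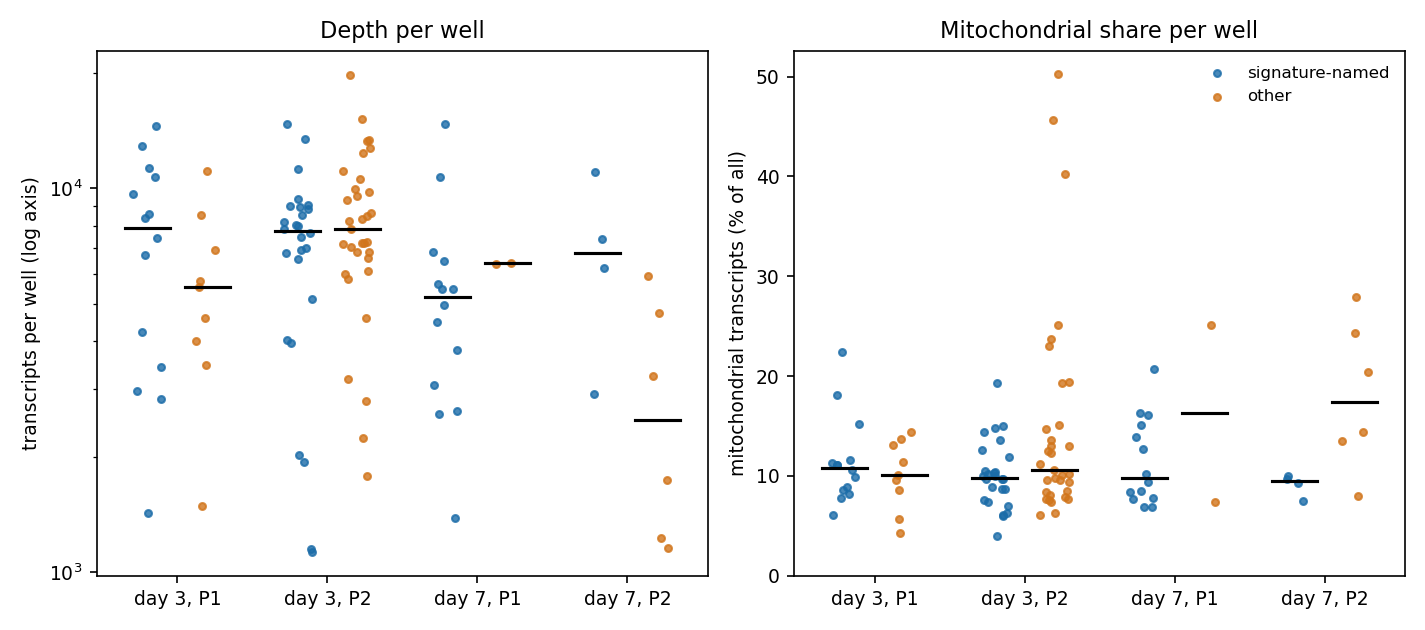
Transcripts per well (log axis) and mitochondrial percent per well for each class and pair of libraries, with bars at the medians. The classes overlap in depth in every pair, and the 6 wells above 25% mitochondrial transcripts are all from the other class.

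The share of dendritic cell wells that carried the signature name varied widely between libraries. It was 6 of 11, 8 of 12, 6 of 15 and 20 of 44 wells in the 4 libraries of day 3 and 5 of 5, 9 of 11, 3 of 6 and 1 of 4 wells in those of day 7. The means were 51.7 ± 11.7% and 64.2 ± 33.3% (SD, n = 4 libraries), and the ranges overlapped (exact two-sided permutation p = 0.486, adjusted over 4 tests 0.486, smallest possible 0.0286). The day 7 libraries held 4 to 11 dendritic cell wells each. The class differences were not shown to depend on day either. In edgeR's test of class by day, 0 of 1040 genes passed (0.0%), with 80 at an unadjusted p under 0.05, and DESeq2 gave 0 with 43.

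Within the signature-named class, day 7 was compared with day 3 over 2 pairs of libraries per day, a comparison the signature call did not use. Of 1648 genes tested, 20 passed (1.21%), 12 higher at day 7 (0.728%) and 8 lower (0.485%), and the genes named for it were chosen after their values were seen. Ifitm1, an interferon-induced membrane protein, fell from 3861 and 5200 CPM at day 3 to 410 and 618 CPM at day 7 (log2 -3.17, SE 0.25, edgeR adjusted p = 8.70e-09). The other dendritic cells had the same order, with 3225 and 4007 CPM at day 3 and 783 and 333 CPM at day 7, whereas microglia had 82.2 to 128 CPM in all 4 pairs. Cfp, the complement regulator properdin, fell from 667 and 734 CPM to 115 and 364 CPM (log2 -1.79, SE 0.44, edgeR adjusted p = 0.0379). Ccr9, a chemokine receptor of gut-homing and plasmacytoid cells, fell from 190 and 316 CPM to 38.4 and 0 CPM (log2 -3.09, SE 0.70, edgeR adjusted p = 0.0218).

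Cst3 rose from 4201 and 5529 CPM at day 3 to 10546 and 12993 CPM at day 7 (log2 1.34, SE 0.17, edgeR adjusted p = 4.03e-05). In microglia its levels were 6573 and 8552 CPM at day 3 and 13390 and 13397 CPM at day 7, so the order was the same there. Cd209a rose from 76.1 and 123 CPM to 653 and 291 CPM (log2 2.40, SE 0.41, edgeR adjusted p = 0.00125), while in the other class its day 7 values of 470 and 55.5 CPM lay on both sides of the day 3 values of 195 and 289 CPM. The 12 genes that rose included all 7 tested genes of the photoreceptor list, with a median log2 fold change of 2.17 against 0.01 over all genes. The order was the same in the other annotated classes, since the list was at 1498 and 2507 CPM at day 3 and at 6758 and 8063 CPM at day 7 in microglia. In the joint class it was at 950.3 and 2755 CPM and at 5402 and 4896 CPM. Pdc rose by 2.47 on the log2 scale (SE 0.44, edgeR adjusted p = 0.00181). None of the 11 type 1 and none of the 14 dendritic core genes tested passed between days. With 2 pairs per day, day and the processing of the pairs cannot be told apart beyond the spread between 2 pairs, and DESeq2 passed 7 genes in place of 20.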

How the data were processed

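The authors deposited an unnormalized table of estimated counts per gene and well for the retina. These are transcripts after their correction for molecular barcodes, which need not be whole, and they were rounded after summing. Genes in that table carry no names, so each of 19071 genes was named, and each well assigned to its library, by equality of its values with the authors' library tables, which hold the same estimated counts for all genes and wells before the authors' selection. Column names give the day and prefix of each well, so results by pair do not rest on this assignment. Per those files, 96 genes with 34.1% of the transcripts were absent from the retina table, among them Gm10800 (16.0%) and nearly all mitochondrial genes, so mitochondrial percent is of library transcripts. Cell type and signature labels are the authors' deposited annotation. Reads were aligned with BWA 0.6.2-r126 per the submitters' processing notes. The genome build, annotation and counting method were not given in the sources used here. The 122 columns of control wells were not used.

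Library totals ran from 371329 to 1130863 transcripts, and sums per class and pair from 12781 to 277321. No annotated wells held identical values, and 107 of 158 well numbers recurred in more than 1 library, being plate positions. Sums were fitted with edgeR 4.0.16 (R 4.3.3, TMM, quasi-likelihood, low genes filtered by class), after a test on simulated data. DESeq2 1.42.0 was an alternative, and alternatives were run for normalization, filters, block, wells, thinning and left-out libraries. The pairs are the block because both classes share the libraries. Permutation tests used scipy 1.17.1. Named genes were the 10 largest rises and falls among called genes at 50 CPM or more and of one direction in every pair, up to 4 genes with the smallest p of each list, and a set of known markers; others are said to be chosen after their values were seen. Items not reported here were also left out of the named genes and lists. The members and lists were chosen with earlier results of these data known.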

Additional observations from a re-analysis of the deposited data

Results flagged for a closer look

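In each class the 4 pairs of libraries were checked for a pair far from the others, and 11 of 127 groups of values held one; chance gives about 1 in 20. In the other class the value that stood apart was the highest one for Itgae (117 CPM, P1 day 3), Clec9a (3.61 CPM), Lamp1 (833 CPM), Fth1 (7648 CPM), Cd3e (3.61 CPM), Nkg7 (3.61 CPM), Ccl5 (3910 CPM), Ccl17 (2231 CPM) and Ccl22 (1946 CPM). For Clec9a, Cd3e and Nkg7 the value is 1 transcript in the P2 day 3 pair, the deepest of the class. In the signature-named class the lowest Klrd1 value (218 CPM) and the highest Ctsd value (182 CPM) stood apart.

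The highest chemokine values were in the P2 day 7 pair, which holds 6 other wells. Ccl17, which draws Ccr4-bearing T cells, was at 0, 0, 157 and 2231 CPM in the other class, and 95.2% of these transcripts lay in 1 well. Ccl5, a chemokine for T cells and monocytes, was at 410, 68.6, 0 and 3910 CPM, with 55.5% in 1 well. Ccl22 was at 0, 97.5, 0 and 1946 CPM, with 32.3% in 1 well. In the signature-named wells Ccl17 did not exceed 64.0 CPM and Ccl22 did not exceed 51.2 CPM. Ccl17 and Ccl22 were chosen after their values were seen.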

How the results depend on the processing

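Against 18 genes between the classes, 13 passed with DESeq2, 18 with its size factors in edgeR and 24 without the filter on low counts. The count fell to 7 with no replicate block for the pairs, 4 over single libraries, 9 with all annotated classes in 1 fit, 10 with only wells that passed the depth and mitochondrial limits, and 0 of 153 genes at 1000 transcripts per well (13 at an unadjusted p under 0.05). It was 31 with day 3 alone. Among the alternatives added after the data were seen, it was 9 with all genes of the library tables, 3 within cluster 7, 11 without cluster 9 and 7 without the 11 wells high in type 1 genes. Leaving out 1 pair gave 6 to 32 genes: 19 without P1 day 3, 6 without P2 day 3, 10 without P1 day 7 and 32 without P2 day 7. Among alternatives that tested them, Itgae and Ppt1 passed in 17 of 17 and 16 of 16, Flt3 in 16 of 18 and Id2 in 17 of 19. These genes are on the marker lists, and every alternative kept the classes of the same signature call. Their counts therefore describe dependence on the setting only and are no independent support for the class difference. Lilr4b, Fcer1g and Ftl1 passed in 7 of 15, 5 of 18 and 5 of 19, so the lower genes depend on the setting. No called gene described in the text changed direction in an alternative that tested it. The median log2 fold change of the same genes was 0.31 without the filter, 0.12 with DESeq2 and 0.11 with all classes, against 0.01.

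Class by day gave 2 genes with the well limits and 1 at equal depth, against 0. Day within the signature-named wells gave 7 genes with DESeq2, 12 over single libraries, 0 at equal depth and 9 to 50 with 1 pair left out (10, 19, 9 and 50, in the order of the pairs), against 20. Depth, genes per well, mitochondrial percent and the share by day kept their direction and stayed short of the threshold in every alternative run. The causes of these changes were not tested. The precision is limited by the 8 other wells of day 7.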

Other observations

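The signature call and the cell type annotation differed in the opposite direction too, since 9 of the 87 wells of the authors' joint class of monocytes, lymphocytes and granulocytes were named dendritic cells by the signature. Genes of migratory dendritic cells summed to 9723 CPM in these 9 wells and to 1159 CPM in the other 78 wells of the class. They included Ccr7 at 1984 CPM and Fscn1, an actin-bundling protein of mature dendritic cells, at 978 CPM. Flt3 was at 446 CPM, Irf8 at 1931 CPM and the MHC class II list at 44271 CPM. Siglech (699 CPM) and Ly6d (559 CPM), genes of plasmacytoid dendritic cells, were also present. These 9 wells lay in 3 clusters and were few per library, so the values are given without a test.

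The 6 annotated dendritic cell wells that the signature named lymphocytes had T cell genes at 1214 CPM, including Trbc1, a T cell receptor chain, at 364 CPM, against 45.6 CPM for the list in the 43 unassigned wells. Their natural killer and innate lymphoid genes were at 1377 CPM (564 CPM in the unassigned wells), B cell genes at 1336 CPM (137 CPM) and cell cycle genes at 7009 CPM (2613 CPM). Their MHC class II list was at 61979 CPM, with Cd209a at 1096 CPM. Their monocyte list was at 7011 CPM, with Ly6c2 at 1665 CPM and Ccr2 at 1256 CPM. Of the 41 Ly6c2 transcripts of the 6 wells, 36 lay in 1 well, so this level does not describe the 6 wells alike. The signature call was made from transcripts of these wells, so the higher lymphocyte genes of the 6 wells follow in part from that choice. The levels are sums over the 6 wells, from 30 T cell, 34 natural killer and innate lymphoid and 33 B cell transcripts. Trbc1 had 9 transcripts and Cd3e 1, and the spread of genes other than Ly6c2 over the 6 wells was not tested. Genes named here from these small sets of wells were chosen after their values were seen.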
